A study of Homo sapiens with 12 samples.

Results

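The genes described here are ECHDC3, ZNF558, NAP1L6, FAM109B, MLKL, PRTG and TXNRD2, 7 of the 27130 genes in the count table. They were selected on their measured counts, because both knockout groups, with or without added ZIC2, stood far from wild type cells and from cells overexpressing ZNF263, and because ZIC2 moved them little toward wild type. The counts behind that choice are therefore given as a description, with no test, for every comparison that involves a knockout group. Of the 7, ECHDC3, ZNF558, NAP1L6, MLKL and PRTG were lower in knockout cells, and FAM109B and TXNRD2 were higher. All 7 passed the filter on low counts that left 15437 genes for testing.

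Poly(A) RNA was sequenced from H1 (WA01), an established human embryonic stem cell line, in 12 libraries, 3 in each of 4 groups. The first group was a homozygous ZNF263 knockout that also overexpressed ZIC2 (KO with ZIC2), and the second was the homozygous ZNF263 knockout without ZIC2 overexpression (KO). The third group overexpressed ZNF263 (ZNF263 OE), and the fourth was wild type (WT). The library names of the KO and WT groups also hold the tag vec, whose meaning the labels do not give. Those of both knockout groups share a further tag that the WT and ZNF263 OE names lack, and its meaning is not given either. ZNF263 is a zinc finger transcription factor of the KRAB and SCAN domain family, and ZIC2 belongs to the ZIC family of zinc finger factors, active in pluripotent and neural cells. Neither the type of edit, nor the number of clones, nor whether the 3 libraries of a group were separate cultures is given in the sources used here, so the p-values measure the spread between these libraries, which may be technical. Loss of ZNF263 and any other difference between the cells behind the 6 knockout libraries and the cells behind the 6 others cannot be told apart.

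The genes have unrelated known roles. ECHDC3 encodes a mitochondrial protein of the enoyl-CoA hydratase family, TXNRD2 the mitochondrial selenoenzyme that reduces thioredoxin, and MLKL the pseudokinase that breaches the plasma membrane in necroptosis after RIPK3 phosphorylates it. ZNF558 encodes a KRAB zinc finger repressor, PRTG (protogenin) an immunoglobulin superfamily receptor of the DCC group found on early embryonic cells, and FAM109B (also PHETA2 or sesquipedalian 2) an endosomal protein that binds the phosphatase OCRL. NAP1L6 is a single-exon relative of the nucleosome assembly protein genes on the X chromosome. Many human promoters are rich in CpG dinucleotides, and KRAB zinc finger proteins such as ZNF558 repress their targets by recruiting the co-repressor TRIM28.

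Total counts per library ranged from 17175183 to 43464609, where KO replicate 1 was the deepest library and the next deepest had 21804410. ZNF263 transcripts averaged 32.2 CPM (library-size-scaled counts) in KO with ZIC2, 31.1 in KO and 240 in ZNF263 OE, against 39.2 in WT, so the poly(A) signal at the targeted gene was not lost in knockout cells, and reads over the edit were not examined. ZIC2 averaged 2040 CPM in KO with ZIC2, 156 in KO and 212 in ZNF263 OE, against 208 in WT. All 14 pluripotent stem cell markers were above 10 CPM in every library. The summed CPM of 10 fibroblast or feeder markers ranged from 644 to 692 in KO with ZIC2, 562 to 607 in KO and 512 to 526 in ZNF263 OE, against 511 to 523 in WT. The sum of 6 neural markers ranged from 556 to 617, 527 to 576 and 465 to 474 in the same 3 groups, against 454 to 478 in WT. For 5 endoderm markers the sums were 9.02 to 9.78, 8.35 to 9.75 and 3.71 to 5.13, against 5.87 to 6.88 in WT. For 4 mesoderm markers they were 1.46 to 2.37, 2.31 to 2.74 and 0.887 to 1.91, against 1.21 to 1.67 in WT. The fibroblast, neural and endoderm sums were higher in all knockout libraries and the mesoderm sum in the KO libraries, and their part in the results was not tested. Above 10 CPM in every library were 4 of the 10 fibroblast or feeder markers, 3 of the 6 neural markers and 0 of the endoderm or mesoderm markers. A few genes can therefore carry a sum. The directions of the single markers were not counted, and no cell type is read from the sums. In bulk RNA, fewer cells with a transcript and less of it per cell cannot be told apart.

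The start regions of 5 of the 7 genes are shown as annotated context for genes that separated the knockout from the other libraries. The counts are per gene, so which annotated start was used was not measured. Each is the RefSeq promoter of GRCh38.p14 (the first listed of 2 for ZNF558 and of 3 for TXNRD2) from 250 bases before to 50 bases after the annotated start, printed on the strand of the gene, with capitals marking GGAGGA or its complement TCCTCC, letters found in the known ZNF263 motif. NAP1L6 and FAM109B are named only. The regions are chr10:11742132-11742431 on the plus strand for ECHDC3, and, all on the minus strand, chr19:8832255-8832554 for ZNF558, chr16:74700813-74701112 for MLKL, chr15:55743103-55743402 for PRTG and chr22:19941769-19942068 for TXNRD2.
ECHDC3: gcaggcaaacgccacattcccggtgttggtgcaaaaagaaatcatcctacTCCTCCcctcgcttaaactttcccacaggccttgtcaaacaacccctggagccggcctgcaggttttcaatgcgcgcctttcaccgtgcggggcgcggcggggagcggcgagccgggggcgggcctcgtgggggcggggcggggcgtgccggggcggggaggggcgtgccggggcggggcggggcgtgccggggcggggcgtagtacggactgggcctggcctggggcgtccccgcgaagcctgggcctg
ZNF558: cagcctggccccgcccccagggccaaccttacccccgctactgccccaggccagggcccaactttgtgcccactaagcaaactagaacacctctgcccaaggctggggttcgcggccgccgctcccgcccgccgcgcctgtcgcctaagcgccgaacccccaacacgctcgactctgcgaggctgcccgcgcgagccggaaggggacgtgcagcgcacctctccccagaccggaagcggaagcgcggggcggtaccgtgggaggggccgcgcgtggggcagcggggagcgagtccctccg
MLKL: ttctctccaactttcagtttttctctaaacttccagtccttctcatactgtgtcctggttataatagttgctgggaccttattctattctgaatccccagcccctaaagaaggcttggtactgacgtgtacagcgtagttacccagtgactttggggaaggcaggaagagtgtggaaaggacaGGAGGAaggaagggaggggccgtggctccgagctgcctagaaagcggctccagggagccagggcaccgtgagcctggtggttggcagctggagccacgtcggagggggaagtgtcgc
PRTG: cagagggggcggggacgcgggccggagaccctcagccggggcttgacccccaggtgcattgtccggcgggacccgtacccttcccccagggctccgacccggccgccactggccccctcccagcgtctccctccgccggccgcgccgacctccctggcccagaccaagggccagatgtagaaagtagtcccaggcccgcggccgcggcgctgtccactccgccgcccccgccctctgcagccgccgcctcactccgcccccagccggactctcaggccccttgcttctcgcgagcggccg
TXNRD2: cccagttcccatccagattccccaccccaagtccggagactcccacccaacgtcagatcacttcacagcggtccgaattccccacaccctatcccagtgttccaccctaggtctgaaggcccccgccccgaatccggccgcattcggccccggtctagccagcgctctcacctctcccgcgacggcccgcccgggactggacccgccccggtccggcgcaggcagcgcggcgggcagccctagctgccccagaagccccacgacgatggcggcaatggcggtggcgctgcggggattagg

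The start regions of ECHDC3, ZNF558, PRTG and TXNRD2 were rich in CpG, with 33, 34, 33 and 29 CpG dinucleotides, against a median of 14 over 35116 promoters of the same length. MLKL had 9. GGAGGA occurred on either strand in 2 of the 5, ECHDC3 and MLKL, and in 36.6% of all promoters. The longer GGAGGAGG, which contains it, occurred in 0 of the 5 and in 10.9% of all promoters. GGGCGG, the GC box, occurred 7 times at ECHDC3, 3 times at ZNF558, 4 times at PRTG and 3 times at TXNRD2, and 45% of all promoters held at least 1. CAGCAGG, letters of the ZIC motif, was in none of the 5 and in 10.5% of all promoters. Further annotated starts, not printed, differed from these: the second of ZNF558 held GGAGGA 2 times and GGAGGAGG 1 time, both others of TXNRD2 held GGAGGA and CAGCAGG 1 time each, and all 3 had 4 CpG dinucleotides.

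ECHDC3 (hg19 chromosome 10, 11784356 to 11806065, plus strand, 5 exons) was close to silent in knockout cells. It was read 4, 11 and 5 times in the KO with ZIC2 libraries, 5, 1 and 4 times in KO and 187, 187 and 235 times in ZNF263 OE, against 173, 202 and 242 times in WT. In CPM this was 0.203, 0.607 and 0.293 in KO with ZIC2, 0.117, 0.0527 and 0.187 in KO and 10.2, 10.4 and 10.7 in ZNF263 OE, against 9.99, 10.8 and 11.5 in WT. The lowest library of the 6 without the knockout was 16.5-fold above the highest knockout library. Over pooled counts ECHDC3 was 29.7-fold lower in KO with ZIC2 than in WT (95% interval 19.1 to 49.0) and 90.1-fold lower in KO than in WT (48.7 to 189). These exact binomial intervals cover counting error only. The 3 KO with ZIC2 libraries all lay above the 3 KO libraries in CPM. The nearest of them, KO with ZIC2 replicate 1 and KO replicate 3, held 4 counts each, so only library size separated these. The share of all genes that separate these groups was not counted, and nothing is read from the separation. The pooled ratio between the groups was 3.03 (1.36 to 7.26), yet this step covered 2.34% of the distance between the KO and WT means.

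ZNF558 (hg19 chromosome 19, 8920252 to 8942980, minus strand, 10 exons) had 1.57, 1.43 and 1.29 CPM in KO with ZIC2, 1.17, 0.896 and 1.35 CPM in KO and 11.9, 10.4 and 11.6 CPM in ZNF263 OE, against 10.4, 12.3 and 13.3 CPM in WT. The knockout libraries overlapped each other, lay below all the others, and left the transcript readable at 17 to 50 counts per library. Its log2 fold change was -3.06 (SE 0.15) in KO with ZIC2 against WT and -3.38 (SE 0.14) in KO against WT. NAP1L6 (hg19 chromosome X, 72345876 to 72347919, minus strand, 1 exon) had 0.405, 1.05 and 0.703 CPM in KO with ZIC2, 0.722, 0.632 and 0.653 CPM in KO and 5.89, 6.6 and 6.67 CPM in ZNF263 OE, against 5.95, 5.92 and 5.0 CPM in WT. The KO with ZIC2 values surrounded the KO values, and the nearest library of the others was 4.77-fold higher. Its log2 fold change was -2.97 (SE 0.21) in KO with ZIC2 against WT and -3.03 (SE 0.19) in KO against WT.

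MLKL (hg19 chromosome 16, 74705753 to 74735046, minus strand, 11 exons) was reduced but not lost. Its levels were 1.37, 1.82 and 1.29 CPM in KO with ZIC2, 1.61, 1.37 and 1.77 CPM in KO and 5.67, 5.43 and 6.49 CPM in ZNF263 OE, against 5.14, 5.07 and 5.86 CPM in WT. The 6 knockout libraries were intermixed, and the log2 fold change was -1.84 (SE 0.17) in KO with ZIC2 against WT and -1.75 (SE 0.15) in KO against WT. PRTG (hg19 chromosome 15, 55903739 to 56035317, minus strand, 20 exons) had 6.33, 5.13 and 6.03 CPM in KO with ZIC2, 5.73, 5.11 and 4.66 CPM in KO and 22.4, 25.7 and 23.4 CPM in ZNF263 OE, against 16.0, 20.6 and 18.6 CPM in WT. It is the one gene of the 7 whose ZNF263 OE libraries all lay outside the WT range. The log2 fold change of PRTG was -1.66 (SE 0.11) in KO with ZIC2 against WT and -1.80 (SE 0.10) in KO against WT.

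FAM109B (hg19 chromosome 22, 42470255 to 42475442, plus strand, 3 exons) went the other way, with a transcript that was almost absent outside the knockout. It was read 144, 135 and 107 times in the KO with ZIC2 libraries, 297, 161 and 136 times in KO and 5, 6 and 3 times in ZNF263 OE, against 7, 5 and 7 times in WT. In CPM it had 7.29, 7.45 and 6.27 in KO with ZIC2, 6.92, 8.48 and 6.34 in KO and 0.273, 0.333 and 0.136 in ZNF263 OE, against 0.404, 0.267 and 0.333 in WT. Pooled counts were 21.1-fold higher in KO with ZIC2 than in WT (13.3 to 35.4) and 21.4-fold higher in KO than in WT (13.6 to 35.8), and the intervals overlapped almost fully.

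TXNRD2 (hg19 chromosome 22, 19863041 to 19929515, minus strand, 19 exons) was present in every group and higher in knockout cells. Its levels were 23.5, 22.9 and 22.1 CPM in KO with ZIC2, 24, 30.9 and 27.7 CPM in KO and 7.20, 7.48 and 7.90 CPM in ZNF263 OE, against 8.55, 7.73 and 7.57 CPM in WT. The KO with ZIC2 libraries all lay below the KO libraries, but narrowly, with 23.5 CPM as the highest of the first and 24 CPM as the lowest of the second. The share of all genes that separate these groups was not counted, and nothing is read from it. The log2 fold change was 1.53 (SE 0.10) in KO with ZIC2 against WT and 1.77 (SE 0.09) in KO against WT, and 24.1% of the KO to WT difference was gone after ZIC2 overexpression. For the other 6 genes that share was between -2.4% (MLKL, slightly further from WT) and 5.02% (PRTG); since a small step toward WT was one of the grounds of choice, these shares are a description only.

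**Figure D1:**
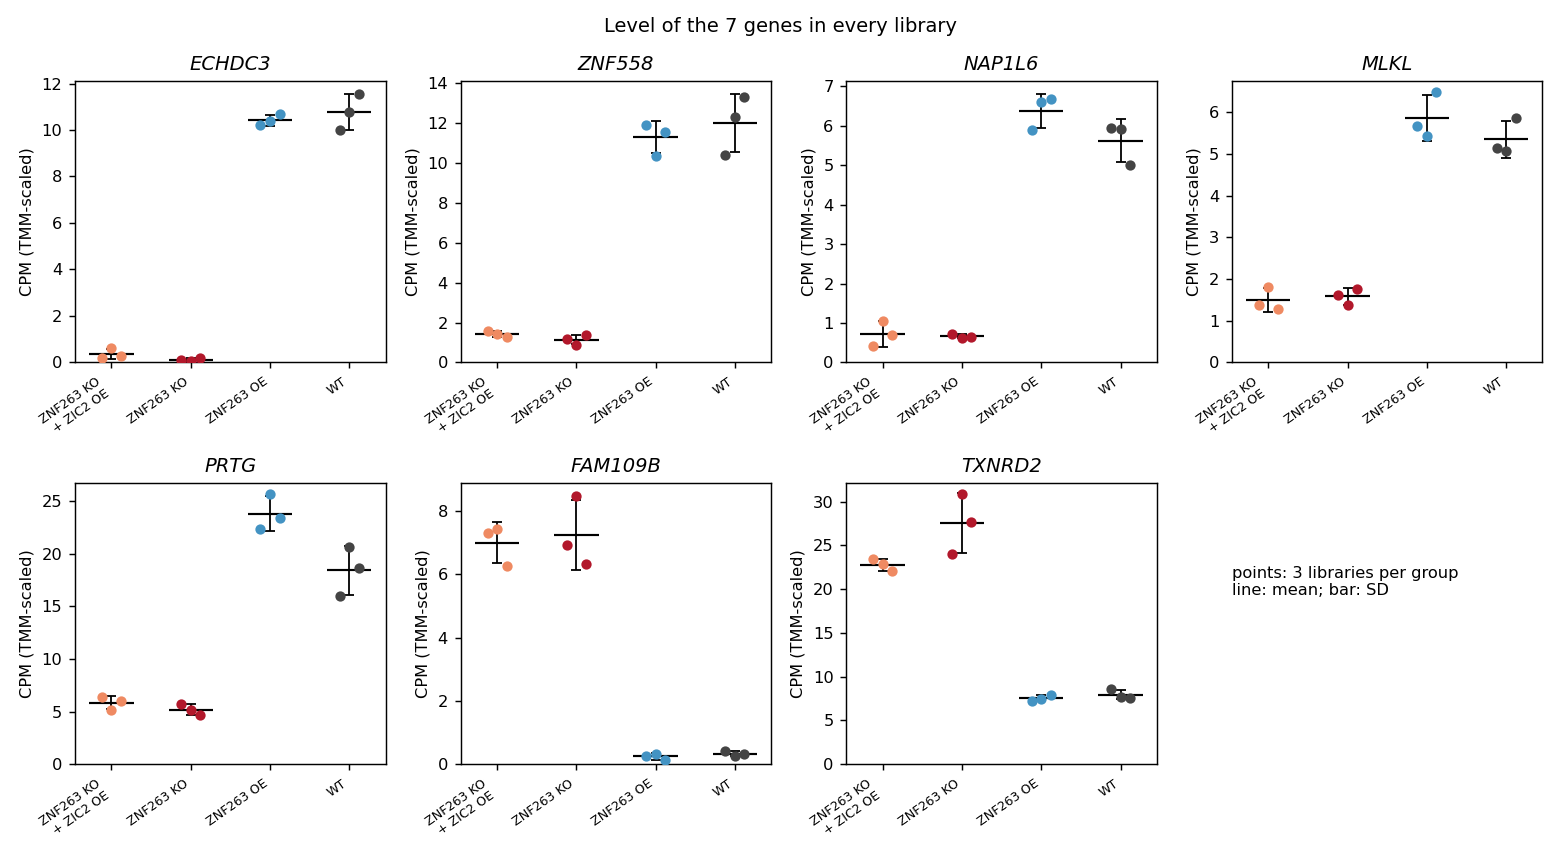
Level of each of the 7 genes in CPM (vertical axis) by group (horizontal axis), with 1 point per library, the mean as a line and the SD as a bar (n = 3 per group). For all 7 genes the KO with ZIC2 and KO points lie on one side and the ZNF263 OE and WT points on the other, and PRTG in ZNF263 OE lies above WT.

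Per kilobase of exon, the 7 genes differed widely in level. TXNRD2 averaged 7.45 RPKM (CPM divided by exonic length in kilobases) in KO with ZIC2, 8.99 RPKM in KO and 2.46 RPKM in ZNF263 OE, against 2.60 RPKM in WT. ECHDC3 was the most abundant of the 7 outside the knockout, at 0.222 RPKM in KO with ZIC2, 0.0717 RPKM in KO and 6.29 RPKM in ZNF263 OE, against 6.51 RPKM in WT. PRTG, with the longest exonic sequence at 12112 bases, had 0.482, 0.427 and 1.97 RPKM in those 3 groups, against 1.52 RPKM in WT. The order of the genes by level therefore differed between knockout and WT cells, with FAM109B second in KO (3.11 RPKM) and last in WT (0.144 RPKM).

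The 6 knockout libraries did not overlap the 6 others for any of the 7 genes, and the same held for 24.7% of all tested genes. An adjusted p under 0.05 in edgeR's quasi-likelihood test, the threshold used throughout, was met by 37.6% of all genes in KO with ZIC2 against WT and by 38.6% in KO against WT. Changes of more than 2-fold were rarer, at 2.61% of genes in KO with ZIC2 against WT and 1.89% in KO against WT. Since these contrasts chose the 7 genes, nothing is read from their passing, and both comparisons share the WT libraries.

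In ZNF263 OE against WT, PRTG was called higher and the other 6 did not pass the threshold. The choice of genes did not set these groups against each other, but it required both to lie far from the knockout groups. Their closeness was partly fixed by it, and nothing is read from the 6. The PRTG counts of these groups entered the choice too, so its call is given as a description and nothing is concluded from it. Across all genes 0.764% were called in ZNF263 OE against WT. PRTG averaged 23.8 ± 1.69 CPM in ZNF263 OE and 18.4 ± 2.30 CPM in WT (SD, n = 3 each), higher by 0.37 on the log2 scale (SE 0.09, edgeR adjusted p = 0.0419). All 3 ZNF263 OE libraries were above all 3 WT libraries. The share of all genes separated in this way was not counted. The call was lost without any one of ZNF263 OE replicates 1, 2 or 3, WT replicates 1 or 3, or KO with ZIC2 replicates 1 or 3, with an adjusted p of up to 0.267. As a description, the 95% intervals of the pooled ratios were 0.861 to 1.08 for ECHDC3, 0.839 to 1.04 for ZNF558, 0.984 to 1.33 for NAP1L6, 0.939 to 1.28 for MLKL and 0.834 to 1.09 for TXNRD2. With 14 counts in ZNF263 OE and 19 in WT, FAM109B allowed a ratio anywhere between 0.334 and 1.51.

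The neighbours described for the 7 genes spanned log2 fold changes of -1.10 to 0.82 in KO with ZIC2 against WT and -0.88 to 1.09 in KO against WT, beside -4.87 to 4.37 and -6.42 to 4.41 for the 7 genes in the same order. The 7 were chosen for large differences, so nothing is read from their wider span. The neighbours came from the 5 nearest positions on each side and numbered 69, of which 40 had enough counts to test. Of the 40, 17 were called in KO with ZIC2 against WT, 5 higher and 12 lower, against 37.6% of all genes, and in KO against WT 20 were called, 8 higher and 12 lower, against 38.6%. The second count was 15 without WT replicate 2. Their sizes were small, with a median absolute log2 fold change of 0.22 in both comparisons, beside 0.17 over all tested genes. The median signed change of the neighbours was 0.01 in both comparisons, beside 0.00 over all genes in KO with ZIC2 against WT and -0.01 in KO against WT. Among the called neighbours, 13 moved with their switched gene and 4 against it in KO with ZIC2 against WT, and 14 with it and 6 against it in KO against WT. Of those that moved with it, 4 lay near PRTG and 3 near ECHDC3 in each comparison. No matching share over all genes was computed, so nothing is read from these counts. In KO with ZIC2 against KO 5 of the 40 were called, 1 higher and 4 lower, against 8.34% of all genes; that count fell to 1 without KO with ZIC2 replicate 1, and to 3 without any one library of KO, of ZNF263 OE, of the remaining KO with ZIC2 replicates or of WT replicates 2 and 3. In ZNF263 OE against WT edgeR called 0 of the 40, with 4 at an unadjusted p under 0.05 and 0 called by DESeq2.

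**Figure D2:**
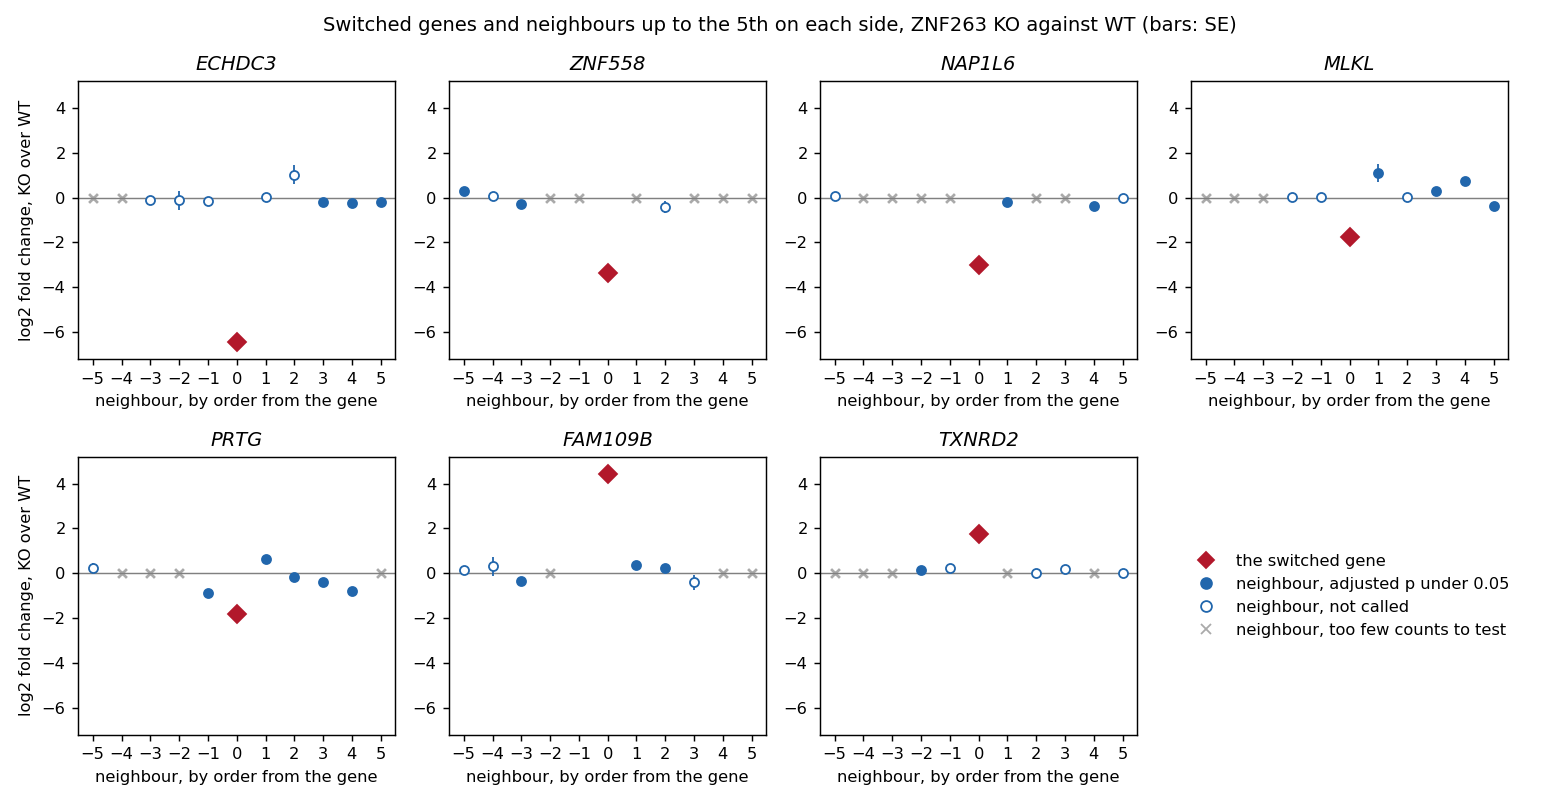
Log2 fold change in KO against WT (vertical axis) of each switched gene (diamond) and of its neighbours by order along the chromosome (horizontal axis), with SE bars, filled circles for neighbours called at an adjusted p under 0.05 and crosses for genes with too few counts. The diamonds lie between -6.42 and 4.41, and the tested neighbours shown lie between -0.88 and 1.09. The switched genes were chosen for large differences, so nothing is read from the wider range of the diamonds.

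Of the 7 tested neighbours of MLKL, 3 were called higher and 1 lower in KO against WT, where 38.6% of all genes were called. In KO with ZIC2 against WT, 2 neighbours of MLKL were called higher and 1 lower, where 37.6% of all genes were called. RFWD3, a ubiquitin ligase gene 4.97 kb away, averaged 204 CPM in KO with ZIC2, 210 in KO and 207 in ZNF263 OE, against 207 in WT, and KO against WT differed by 0.02 on the log2 scale (SE 0.04, edgeR adjusted p = 0.757). FA2H, a fatty acid hydroxylase gene on the other side, was near 1 CPM and rose in KO against WT by 1.09 on the log2 scale (SE 0.39, adjusted p = 0.0301), opposite to MLKL; the call was lost without KO replicate 1 or WT replicates 1 or 3 (adjusted p 0.0968 to 0.214), and its value was 0.66 without WT replicate 3 and 1.93 without WT replicate 2. Around ECHDC3 the nearest tested genes, USP6NL at 131 kb and PROSER2 at 59.3 kb, had log2 fold changes of -0.14 (adjusted p = 0.0646) and 0.02 (adjusted p = 0.892) in KO against WT. Neither passed the threshold, beside -6.42 for ECHDC3 itself, though USP6NL passed it without KO replicate 1 or WT replicate 1 (adjusted p 0.00537 and 0.0499).

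FAM109B lies 253 bases before SMDT1, which encodes a subunit of the mitochondrial calcium uniporter. SMDT1 averaged 14.7 CPM in KO with ZIC2, 15.3 in KO and 12.8 in ZNF263 OE, against 11.6 in WT. It rose in KO with ZIC2 against WT by 0.34 (SE 0.08, adjusted p = 0.00157) and in KO against WT by 0.38 (SE 0.08, adjusted p = 0.00035), beside 4.37 and 4.41 for FAM109B in the same 2 comparisons. On the other side, 76.0 kb away, SEPT3, a septin gene of the cytoskeleton, fell by 0.57 (SE 0.05, adjusted p = 1.58e-08) in KO with ZIC2 against WT and by 0.34 (SE 0.05, adjusted p = 1.25e-05) in KO against WT, opposite to FAM109B.

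Genes flanking TXNRD2 included GNB1L and ARVCF. GNB1L at 20.6 kb, which encodes a WD repeat protein, averaged 9.13 CPM in KO with ZIC2, 9.19 in KO and 9.14 in ZNF263 OE, against 7.73 in WT, and did not pass the threshold in KO against WT (0.23, SE 0.10, edgeR adjusted p = 0.0732). It passed without KO replicate 1 (adjusted p = 0.0194). ARVCF at 27.9 kb, a catenin gene, averaged 44.6 CPM in KO with ZIC2, 44.0 in KO and 47.1 in ZNF263 OE, against 44.2 in WT (-0.01, SE 0.05, adjusted p = 0.903 in KO against WT).

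Several genes around PRTG were lower together with it in the knockout groups. PYGO1, a Wnt pathway co-activator gene 22.7 kb away, fell by 1.10 on the log2 scale in KO with ZIC2 against WT (SE 0.19, adjusted p = 8.16e-05) and by 0.88 in KO against WT (SE 0.17, adjusted p = 0.000247). MNS1, a cilium and sperm flagellum gene at 686 kb, fell by 0.99 (SE 0.13, adjusted p = 2.64e-06) and by 0.80 (SE 0.12, adjusted p = 1.18e-05) in the same order. NEDD4, a ubiquitin ligase gene between them at 83.8 kb, moved the other way and rose in KO against WT by 0.65 (SE 0.11, adjusted p = 8.42e-05). In KO with ZIC2 against WT its value was 0.30 (SE 0.12, adjusted p = 0.0575), and it passed the threshold without KO replicate 2 or KO with ZIC2 replicate 2 (adjusted p 0.0369 and 0.00152). In ZNF263 OE, where PRTG lay above WT, PYGO1 had 2.07, 2.22 and 2.04 CPM, against 3.41, 2.61 and 3.0 CPM in WT. This lower level of PYGO1 did not pass the threshold (-0.51, SE 0.17, edgeR adjusted p = 0.224). Of the 6 tested neighbours of PRTG, 4 were lower and 0 higher in KO with ZIC2 against WT, where 37.6% of all genes were called. In KO against WT 4 were lower and 1 higher, where 38.6% of all genes were called. Among the lower ones, TEX9 at 622 kb and MNS1 overlap on opposite strands, so their reads cannot be fully told apart.

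**Figure D3:**
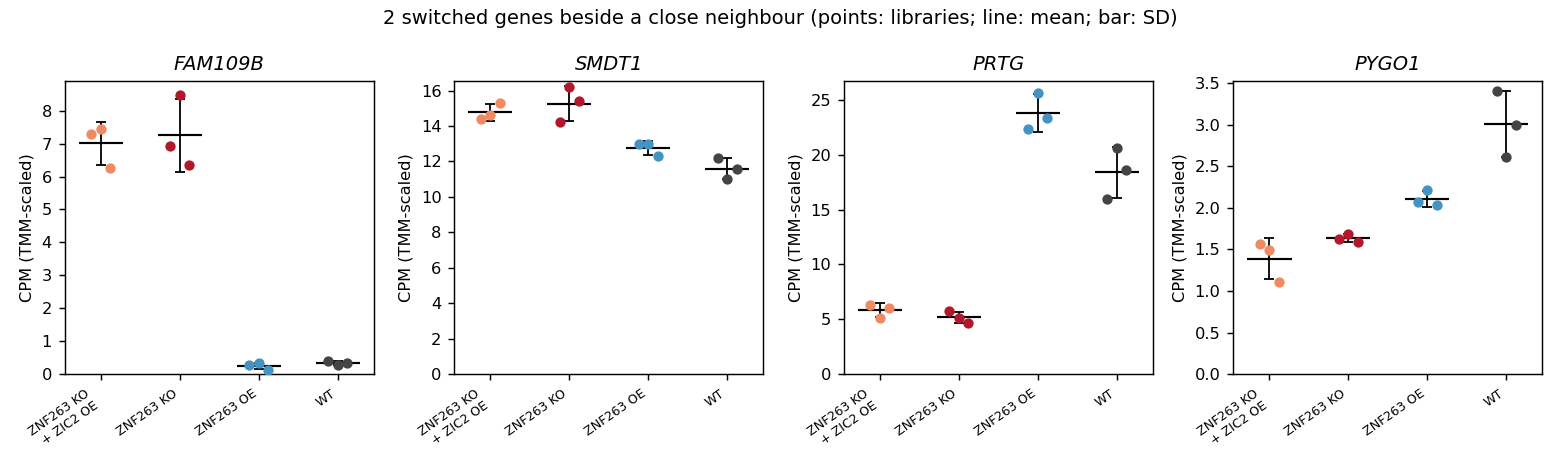
Levels in CPM (vertical axis) by group (horizontal axis) of FAM109B and its close neighbour SMDT1 and of PRTG and its close neighbour PYGO1, with 1 point per library, the mean as a line and the SD as a bar (n = 3 per group). SMDT1 averages 14.7 CPM in KO with ZIC2, 15.3 CPM in KO and 12.8 CPM in ZNF263 OE, against 11.6 CPM in WT. PYGO1 averages 1.39 CPM in KO with ZIC2, 1.63 CPM in KO and 2.11 CPM in ZNF263 OE, against 3.01 CPM in WT.

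Around ZNF558 and NAP1L6 few genes could be tested, 4 of 10 in each case. MUC16, a cell-surface mucin gene 16.5 kb from ZNF558, did not pass the threshold, at -0.52 on the log2 scale (SE 0.29, adjusted p = 0.162) in KO with ZIC2 against WT and -0.43 (SE 0.26, adjusted p = 0.2) in KO against WT. ADAMTS10, a secreted metalloprotease gene on the other side at 245 kb, fell by 0.37 (SE 0.08, adjusted p = 0.00116) and by 0.28 (SE 0.08, adjusted p = 0.00616) in the same order, and the call in KO against WT was lost without WT replicate 2 (adjusted p = 0.0593). NAP1L2, an intact relative of NAP1L6 at 84.2 kb, averaged 31.5 CPM in KO with ZIC2, 27.9 in KO and 30.7 in ZNF263 OE, against 31.8 in WT. It fell by 0.19 (SE 0.06, adjusted p = 0.00841) in KO against WT, a call lost without WT replicate 1 (adjusted p = 0.0554), beside -3.03 for NAP1L6. PHKA1, a phosphorylase kinase subunit gene at 412 kb, had 0.07 (SE 0.08, edgeR adjusted p = 0.502) in KO against WT. It was called lower in KO with ZIC2 against WT (-0.23, SE 0.09, adjusted p = 0.0386) and in KO with ZIC2 against KO (-0.31, SE 0.08, adjusted p = 0.0193). Both calls were lost without KO with ZIC2 replicate 1 or 3. Of the 4 tested neighbours of NAP1L6, 2 were called lower and 0 higher in each knockout group against WT. The shares of all genes called were 37.6% for KO with ZIC2 and 38.6% for KO.

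Genes of the families and pathways of the 7 were taken as 122 genes in 8 lists. The 7 were chosen for large differences, so nothing is read from the smaller ones of these lists. Of 112 tested, 47 (42.0%, against 37.6% of all genes) were called in KO with ZIC2 against WT, 29 higher and 18 lower, and 56 in KO against WT, 29 higher and 27 lower, against 38.6% of all genes. The counts of the single lists are to be read against the same shares of all genes. None exceeded 2-fold in either comparison, and the median absolute log2 fold change was 0.13 in KO with ZIC2 against WT and 0.15 in KO against WT, beside 0.17 over all tested genes in both. Between KO with ZIC2 and KO 12 were called (10.7%, against 8.34% of all genes), 9 higher and 3 lower. A correction for GC content and length ended the calls of TRAF2, APPL1, SET, NAP1L1 and ZNF561 in KO against WT, and among the neighbours those of FA2H and NAP1L2. In ZNF263 OE against WT edgeR called 1, ECHDC1 (-0.18, adjusted p = 0.0281), which was called by no fit that left out a library of either group.

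In the necroptosis and death receptor list of MLKL, 6 of 13 tested genes were called higher and 0 lower in KO with ZIC2 against WT, and 4 were higher and 2 lower in KO against WT. RIPK1, the kinase upstream of RIPK3, rose by 0.24 in KO against WT (SE 0.05, adjusted p = 0.000255), and TRAF2, an adaptor of tumour necrosis factor receptors, by 0.22 (SE 0.05, adjusted p = 0.00147). This call of TRAF2 was lost once GC content and length were corrected for. In KO with ZIC2 against WT, TRAF2 had 0.13 (edgeR adjusted p = 0.0492), a call lost in most fits without 1 library (up to 0.174). RIPK1 had 0.14 there (adjusted p = 0.019), a call lost without KO with ZIC2 replicate 3 or WT replicates 2 or 3. The count of 6 is therefore not firm. RIPK3, which activates MLKL, never exceeded 3 counts in any library, and ZBP1, a sensor that engages RIPK3, never exceeded 2, so neither was tested. These 2 are named for their role in the pathway.

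The thioredoxin, peroxiredoxin and glutaredoxin list of TXNRD2 had 6 of 23 genes higher and 2 lower in KO with ZIC2 against WT, and 10 higher and 2 lower in KO against WT. GPX1, a glutathione peroxidase, rose by 0.37 in KO with ZIC2 against WT (SE 0.05, adjusted p = 1.71e-05) and by 0.49 in KO against WT (SE 0.05, adjusted p = 3.59e-07). NXN, a thioredoxin relative that binds Dishevelled, rose by 0.36 (SE 0.04, adjusted p = 5.5e-07) and 0.47 (SE 0.04, adjusted p = 7.29e-09). In the enoyl-CoA hydratase and beta-oxidation list of ECHDC3, 2 of 15 were higher and 3 lower in KO with ZIC2 against WT, and 5 higher and 3 lower in KO against WT. ECH1, a dienoyl-CoA isomerase, rose by 0.44 (SE 0.05, adjusted p = 5.39e-07) in KO against WT, and ACADM, the medium-chain acyl-CoA dehydrogenase, fell by 0.24 (SE 0.05, adjusted p = 0.000524).

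The DCC family list of PRTG had more calls between the 2 knockout groups than any of the other 7 lists. In KO with ZIC2 against KO 5 of 17 were called, all higher (29.4%, against 8.34% of all genes). In KO with ZIC2 against WT 7 were higher and 1 lower, and in KO against WT 2 were higher and 7 lower. IGDCC4, a receptor of the same subgroup as PRTG, had 19.8, 20.9 and 21.4 CPM in KO with ZIC2, 11.3, 9.80 and 10.1 CPM in KO and 21.9, 20.2 and 20.8 CPM in ZNF263 OE, against 19.6, 19.9 and 18.4 CPM in WT. It was low in the KO libraries and overlapped WT in the KO with ZIC2 libraries. It fell by 0.87 in KO against WT (SE 0.07, adjusted p = 3.85e-09) and rose by 0.97 in KO with ZIC2 against KO (SE 0.07, adjusted p = 2.62e-09). Its relative IGDCC3 rose by 0.66 in KO with ZIC2 against KO (SE 0.04, adjusted p = 9.93e-11) and fell by 0.30 in KO against WT (SE 0.04, adjusted p = 5.7e-06). The corresponding descriptive value for PRTG in KO with ZIC2 against KO was 0.15 (SE 0.13).

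For ZNF558, one known target was measured. SPATC1L, which ZNF558 represses in human neural progenitors, had 49.8, 52.3 and 45.1 CPM in KO with ZIC2, 47.6, 51.4 and 51.0 CPM in KO and 34.8, 34.6 and 39.0 CPM in ZNF263 OE, against 36.2, 37.6 and 37.0 CPM in WT. Every knockout library lay above every other library, and 24.7% of all tested genes were separated in this way, up or down. SPATC1L rose by 0.41 in KO with ZIC2 against WT (SE 0.06, edgeR adjusted p = 1.48e-05), where 37.6% of all genes were called. It rose by 0.43 in KO against WT (SE 0.06, adjusted p = 5.21e-06), where 38.6% were called, and had -0.03 (adjusted p = 0.921) in ZNF263 OE against WT. Whether ZNF558 had a part in the rise of SPATC1L was not tested. In the list that holds it, of KRAB co-repressors, TRIM28, the main KRAB co-repressor, rose by 0.36 in both comparisons (SE 0.03, adjusted p = 1.33e-08 in KO with ZIC2 against WT and 1.25e-08 in KO against WT). CHD3, a chromatin remodeller that TRIM28 recruits, rose by 0.91 (SE 0.07, adjusted p = 4.98e-10) and 0.75 (SE 0.06, adjusted p = 7.5e-09) in that order. Of 7 tested in this list 3 were higher and 2 lower in KO with ZIC2 against WT, and 3 higher and 3 lower in KO against WT. Of the other zinc finger genes in the ZNF558 region of chromosome 19, 0 of 9 tested were higher and 2 lower in KO with ZIC2 against WT, and 0 higher and 1 lower in KO against WT. The lower one in KO against WT was ZNF561 (-0.16, SE 0.04, adjusted p = 0.00513), and ZNF559 did not pass the threshold (-0.16, SE 0.07, adjusted p = 0.0936). The call of ZNF561 was lost once GC content and length were corrected for.

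The nucleosome assembly and histone chaperone list of NAP1L6 had 3 of 12 tested genes higher and 2 lower in KO with ZIC2 against WT, and 1 higher and 3 lower in KO against WT. NAP1L1 (-0.15, SE 0.03, adjusted p = 0.00113) and SET (-0.11, SE 0.03, adjusted p = 0.0039), both abundant histone chaperones, fell in KO against WT, but neither was called, and NAP1L1 was at 0.03, once GC content and length were corrected for. In the endosomal recycling list of FAM109B, 2 of 16 were higher and 6 lower in KO with ZIC2 against WT, and 4 higher and 6 lower in KO against WT. VPS26A, a retromer subunit, fell by 0.28 in KO against WT (SE 0.05, adjusted p = 3.97e-05), and APPL1, an endosomal adaptor that binds OCRL, fell by 0.27 (SE 0.05, adjusted p = 0.000162). The call of APPL1 was lost once GC content and length were corrected for.

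**Figure D4:**
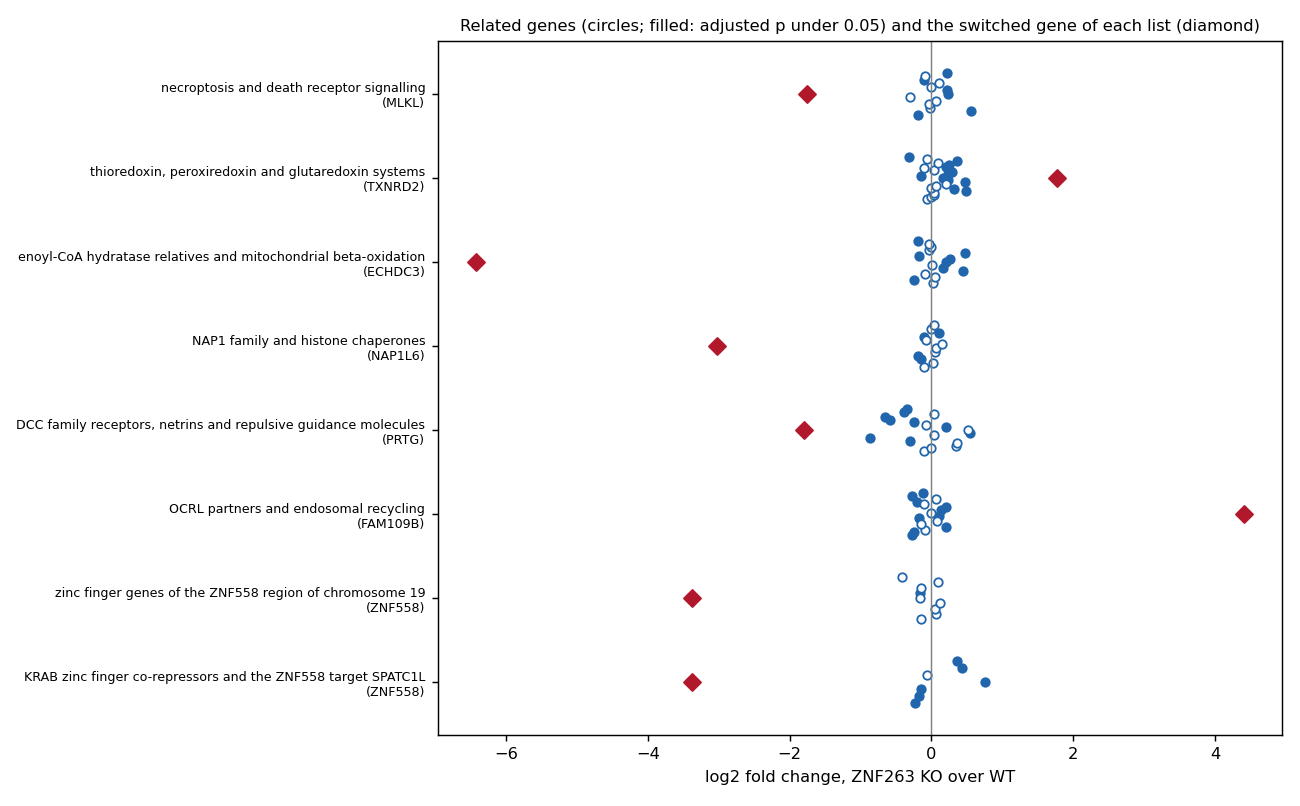
Log2 fold change in KO against WT (horizontal axis) of the genes related to each switched gene, by list (rows), with filled circles for an adjusted p under 0.05 and a diamond for the switched gene of the list. The related genes lie within 1 log2 unit of 0 in every list, and the diamonds lie between -6.42 and 4.41. The switched genes were chosen for large differences, so nothing is read from the wider range of the diamonds.

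Other genes had the same pattern across the 4 groups. Genes were ordered by the gap between the 6 knockout and the 6 other libraries, as the distance in log2 CPM from the lowest library of the higher set to the highest library of the lower set. ECHDC3 came in at rank 3 with a gap of 3.85, FAM109B at rank 5 with 3.67, ZNF558 at rank 9 with 2.65 and NAP1L6 at rank 12 with 2.16. MLKL, TXNRD2 and PRTG followed at ranks 19, 22 and 24 with 1.43, 1.36 and 1.32. The rule for the 7 set no numeric limit, and the genes next to PRTG in this order were ANXA1 with 1.34 and RGS9 with 1.28.

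The 10 most similar named genes outside the 7 were ZNF596, HSD17B7P2, RPL23AP53, NPFFR2, ZNF528, S100A6, TMEM119, SEC14L4, CYTOR and DNAJA4, of which S100A6 and SEC14L4 were lower in knockout cells and the other 8 higher. ZNF596, a KRAB zinc finger gene, had 105 pooled counts in KO with ZIC2, 161 in KO and 0 in ZNF263 OE, against 0 in WT. It was at least 36.4-fold higher in KO with ZIC2 and at least 36.7-fold higher in KO than in WT, with 3 counts over the WT group as the floor and no allowance for counting error in the knockout counts. The exact 95% lower limits, which make that allowance, were 29-fold and 29.5-fold in the same order. RPL23AP53, a ribosomal protein pseudogene on the opposite strand of chromosome 8, overlaps the start of ZNF596, so the 2 may not be separate examples. It had 106 pooled counts in KO with ZIC2 and 164 in KO, against 2 in WT. ZNF528, another KRAB zinc finger gene, was 11.6-fold higher in KO with ZIC2 than in WT (5.06 to 32.7) and 12.8-fold higher in KO than in WT (5.69 to 35.6). S100A6, a calcium-binding protein gene, was 8.36-fold lower in KO with ZIC2 than in WT and 21.5-fold lower in KO than in WT. It had 22 pooled counts in KO with ZIC2, 13 in KO and 215 in ZNF263 OE, against 191 in WT. Its step toward WT with ZIC2, like that of ECHDC3, rests on few counts.

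**Figure D5:**
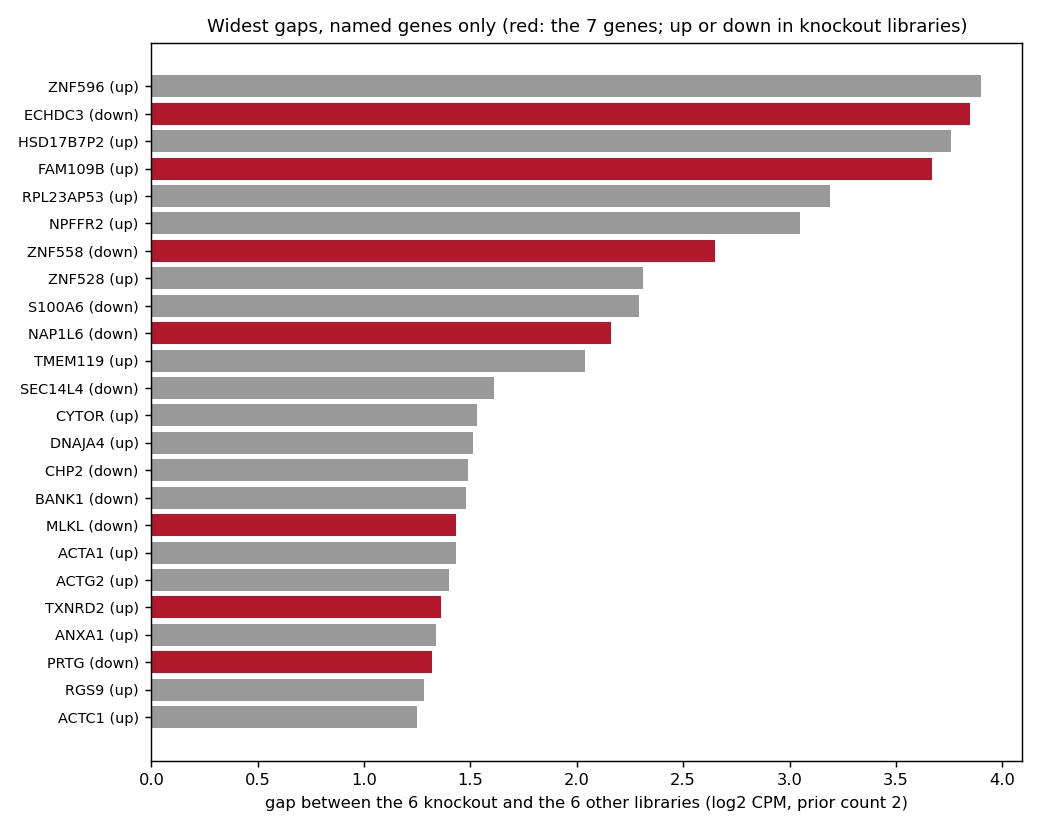
Gap between the 6 knockout and the 6 other libraries in log2 CPM with a prior count of 2 (horizontal axis) for the named genes with the widest gaps (rows), with the 7 genes in red and the direction in knockout libraries beside each name. Y-linked genes and unnamed loci are left out. ECHDC3 and FAM109B have gaps of 3.85 and 3.67, next to ZNF596 with 3.90, and PRTG has 1.32.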

How the data were processed

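RNA-seq of 12 H1 libraries was analysed from the table of whole-number read counts per gene that the authors deposited, without normalization. The submitters' processing notes list STAR, featureCounts, DESeq2 and hg19, with no version or role. Coordinates and exonic lengths are those that the authors deposited beside the counts. Differential expression was tested with edgeR 4.0.16 in R 4.3.3 (filterByExpr, TMM scaling, quasi-likelihood F-test, group as the only term, all 12 libraries, 8 residual degrees of freedom), with Benjamini-Hochberg adjustment over 15437 genes and a threshold of 0.05; DESeq2 1.42.0 was an alternative. SE is the log2 fold change divided by the square root of F. CPM used TMM-scaled library sizes, and RPKM divided mean CPM by exonic length. The library kit named in the labels does not mark strand, and where genes on opposite strands overlap their reads cannot be told apart. The steps were tested on simulated counts. The 7 genes, the lists and the tests were chosen with earlier results of these data known. Named neighbours were the nearest tested gene described on each side and any called in the same direction in both knockout comparisons with a log2 change over 0.58 in size. Named related genes were up to 2 per list with the smallest adjusted p in KO against WT, and SPATC1L. XIST, TSIX and Y-linked genes were not named, and some neighbouring genes, large changes among them, are not reported here, so the neighbour counts and ranges do not cover every gene near the 7.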

Additional observations from a re-analysis of the deposited data

How the results depend on the processing

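Leaving out 1 library at a time gave 15 to 21 called neighbours in KO against WT (20 with all) and 13 to 19 in KO with ZIC2 against WT (17 with all). In KO with ZIC2 against KO, the 5 called neighbours became 2 with DESeq2, 2 with only these groups in the fit, and 1 to 5 without 1 library. With 10 genes on each side the counts were 27 of 76 tested (35.5%) in KO with ZIC2 against WT, 29 (38.2%) in KO against WT and 8 (10.5%) in KO with ZIC2 against KO. Within 500 kb they were 30 of 81 (37.0%), 31 (38.3%) and 9 (11.1%), so in KO against WT the called share was near the 38.6% of all genes in both wider sets. In ZNF263 OE against WT, the 1 called related gene became 2 without the filter, 7 with only these groups and 0 to 2 without 1 library, and the 1 called gene of the 7 became 0 to 1 without 1 library. A correction for GC content and length changed 1.53 to 1.37 for TXNRD2 in KO with ZIC2 against WT. In the same comparison it changed 0.01 to -0.14 for ARVCF, 0.13 to -0.03 for TRAF2 and -0.17 to 0.00 for NAP1L1. In KO against WT it changed -0.15 to 0.03 for NAP1L1. The sign thus changed for ARVCF, for TRAF2 and, in KO against WT, for NAP1L1, and the causes were not tested. With the replicate number as a block the called neighbours in KO with ZIC2 against KO were 3, and same-numbered libraries correlated between -0.11 and 0.11 over 18 pairs, so they share only a number. Of the other values for single genes, 2701 kept direction and call, 81 lost the call and 19 gained it. Depth limits FAM109B in WT and ZNF263 OE and ECHDC3 in knockout libraries, where each library held at most 11 counts.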
